A study of Macaca mulatta with 2 samples.

Results

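The receptors *KLRB1*, *KLRD1*, *KLRF1*, *KLRG1*, *NKG2D* and *NCR3*, best known from natural killer (NK) cells, were followed in circulating CD4+CD8+ double-positive (DP) T cells. They were taken by their names in the deposited gene list, where *NKG2D* stands for the gene also written *KLRK1*, and make up 6 of its 35432 genes. The cells came from the peripheral blood of 1 healthy adult rhesus monkey, 6 years old and untreated. CD4+ cells were bound to releasable beads, released, and then sorted again with CD8 beads, so every cell analysed had passed both sorts. The sorted cells carried feature barcodes (FB), that is, antibodies against CD4 and CD8α with an oligonucleotide tag, and gave 1 library of 5′ gene expression and 1 library of the FB tags from the same cells. There was no second animal, no second library and no single-positive control, so cells of this animal are not replicates, no test was run, and every interval given is an exact 95% interval that covers counting error only.

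The KLR genes encode C-type lectin-like receptors, which lie side by side in the NK gene complex. NK cells read the balance of activating and inhibitory receptors of this kind to decide whether to kill a target, and T cells take up some of the same receptors after repeated stimulation or when they develop as innate-like T cells. *KLRB1* (CD161) binds the lectin-like ligand encoded by *CLEC2D*, and marks many innate-like T cells. *KLRD1* (CD94) forms heterodimers with NKG2 proteins that recognise a non-classical MHC class I molecule, while *KLRG1* binds cadherins and inhibits. On the activating side, *KLRF1* (NKp80) binds the product of *CLEC2B*, *NKG2D* binds stress-induced MHC class I-like ligands and signals through the adaptor encoded by *HCST* (DAP10), and *NCR3* (NKp30) binds a B7 family ligand and *BAG6*.

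Of the 6 genes 5 lay on chromosome 11 of the Mmul_10 assembly, within 1408103 bases. By the RefSeq annotation *NKG2D* spans 9359059 to 9376449 on the plus strand and *KLRD1* spans 9390401 to 9397427 on the minus strand, with 13951 bases between them. *KLRF1* spans 9859108 to 9874215 on the minus strand, *KLRB1* spans 10090828 to 10103486 on the plus strand, and *KLRG1* spans 10745613 to 10767161 on the minus strand. *NCR3* lies apart, on chromosome 4 at 137919086 to 137923382 on the plus strand, in the region of the MHC. The 4 receptors that were at least 2-fold higher together in both *GZMB* gates described further on were *KLRD1*, *KLRF1*, *KLRG1* and *NKG2D*, and for this reason the 200 bases before the annotated starts of *KLRD1*, *KLRG1* and *NKG2D* are shown, each read along its own gene, with capitals marking a RUNX motif.
KLRD1 (chr11:9397428-9397627, minus strand): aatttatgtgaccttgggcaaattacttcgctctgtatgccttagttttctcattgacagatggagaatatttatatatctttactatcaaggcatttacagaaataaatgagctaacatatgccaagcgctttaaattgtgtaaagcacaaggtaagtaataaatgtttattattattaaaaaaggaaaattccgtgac
KLRG1 (chr11:10767162-10767361, minus strand): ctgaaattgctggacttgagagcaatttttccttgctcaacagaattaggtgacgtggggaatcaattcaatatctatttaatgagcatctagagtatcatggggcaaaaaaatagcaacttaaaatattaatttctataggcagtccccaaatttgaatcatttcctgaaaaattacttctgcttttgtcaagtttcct
NKG2D (chr11:9358859-9359058, plus strand): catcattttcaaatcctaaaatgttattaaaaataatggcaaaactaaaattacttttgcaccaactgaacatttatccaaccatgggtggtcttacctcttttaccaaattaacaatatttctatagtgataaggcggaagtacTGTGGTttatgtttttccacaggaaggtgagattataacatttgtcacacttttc
These windows were rich in A and T, with a G and C content of 30.5% for *KLRD1*, 34.0% for *KLRG1* and 31.5% for *NKG2D*. The RUNX motif TGTGGT, or ACCACA on the other strand, was found once in these 3 windows, in that of *NKG2D*, and 8.86% of all 20783 promoter windows of this length held it. The T-box motif TCACACC, or GGTGTGA on the other strand, was in none of these 3 windows and in 2.73% of all windows. A match of letters is a description and not a binding site. Each window lies before the outermost annotated start of its gene only. *KLRD1* has 3 annotated start sites over 258 bases and *NKG2D* has 2 over 1246 bases.

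After the filter of the study, 7601 of 7923 barcodes were kept, with a median of 3636 unique molecular identifiers (UMIs) and 1282 genes per cell. Both libraries shared all barcodes. T cells were taken as the 7445 kept cells (97.9%) with at least 1 UMI of *CD3D*, *CD3E* or *CD3G*, and the median T cell had 385 UMIs of the CD4 tag and 339 of the CD8 tag. The other 156 kept cells held 87 cells with B cell genes, a cell type that should lack these receptors and that served as background, and 69 others with a median depth of only 904 UMIs. CD3 UMIs were thus the definition of T cells and not a separate check of it. By the tags, against limits set at the 90th percentile of the B cell gene cells (192.6 UMIs of the CD4 tag and 329.8 of the CD8 tag), 3626 T cells lay above both limits, 3308 above that of CD4 alone, 198 above that of CD8 alone and 313 above neither, so that the tags marked both proteins in only part of the T cells. Macaque NK cells carry CD8, and each receptor was therefore also checked against CD3. Between 99.1% and 99.7% of the cells with a UMI of a receptor had a CD3 UMI as well, with a median of 11 or 12 CD3 UMIs. Among cells without the receptor the share was 97.4% to 97.9%, with a median of 10. Since nearly all cells had a CD3 UMI, this check cannot decide whether NK cells were present. Over the 7445 T cells the NK genes *NCAM1*, *NCR1* and *FCGR3* had 5, 23 and 8 UMIs in total. Among the 1516 T cells with a UMI of *KLRF1*, *NCAM1* had 0, *NCR1* 8 and *FCGR3* 2. Besides *KLRF1*, the same NK gene list held *SH2D1B* with 1 UMI in T cells, *FCER1G* with 47 and *TYROBP* with 3066. In the T cells with *KLRF1* these had 0, 12 and 937 UMIs. The genes of the list thus differed widely, and whether NK cells were present was not tested with them.

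Counts per cell were low for all 6. *KLRB1* had 4721 UMIs in kept cells and a UMI in 24.3% of them, with up to 20 UMIs in a cell and 2.56 UMIs per positive cell. *KLRD1* (2453 UMIs, 16.6% of cells) and *KLRF1* (2178 UMIs, 20.04%) had 1.94 and 1.43 UMIs per positive cell. *NKG2D* had 1665 UMIs in 17.6% of cells, *KLRG1* 1503 in 15.04%, and *NCR3* 626 in 7.01%. Most positive cells of *NCR3* (85.4%), *NKG2D* (79.6%) and *KLRG1* (76.6%) held a single UMI, so a cell without a UMI cannot be read as a cell without the receptor. In the 87 B cell gene cells, whose median depth of 4072 UMIs was above that of T cells, *KLRB1*, *KLRD1* and *KLRG1* were each found in 0 cells, for which the exact upper bound is 4.15%. *KLRF1* was found in 1 of these cells (1.15%), *NKG2D* in 2 (2.30%) and *NCR3* in 3 (3.45%). Levels are given as CPM, the UMIs of a gene per 1000000 gene UMIs summed over a set of cells. They compare 1 gene between sets, since 5′ counts are not scaled for how well each transcript is captured and do not rank the receptors against each other.

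T cells were placed in 9 exclusive gates by raw UMIs of *TRAV10*, *ZBTB16*, *GZMB*, *CX3CR1*, *EOMES* and *CCR7*. *TRAV10* is the α-chain variable segment of invariant NKT cells in human nomenclature, *ZBTB16* encodes PLZF, a factor of innate-like T cells, *GZMB* encodes granzyme B, *CX3CR1* marks effector cells, *EOMES* is a T-box factor, and *CCR7* is a homing receptor of naive and central memory cells. Cells with *TRAV10* or *ZBTB16* were taken first, as TRAV10+ ZBTB16+ (73 cells), TRAV10+ ZBTB16- (175) and ZBTB16+ TRAV10- (150). The rest were CX3CR1+ GZMB+ (1145 cells, with at least 3 UMIs of *GZMB*), EOMES+ (308), GZMB+ CX3CR1- EOMES- (1479), CCR7+ (1717), cells with none of the 6 gate genes (1928) and a mixed remainder (470). The GZMB+ CX3CR1- EOMES- gate also asked for at least 3 UMIs of *GZMB*. EOMES+ cells were taken only outside CX3CR1+ GZMB+, so cells with *EOMES* that met the limits of that gate were counted there. CCR7+ cells had no UMI of *GZMB*, *CX3CR1* or *EOMES*. A receptor was counted as higher or lower in a gate when the ratio of its CPM plus 10 to that of all other gated T cells was at least 2-fold, over 10067 genes with at least 50 UMIs.

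**Figure D1:**
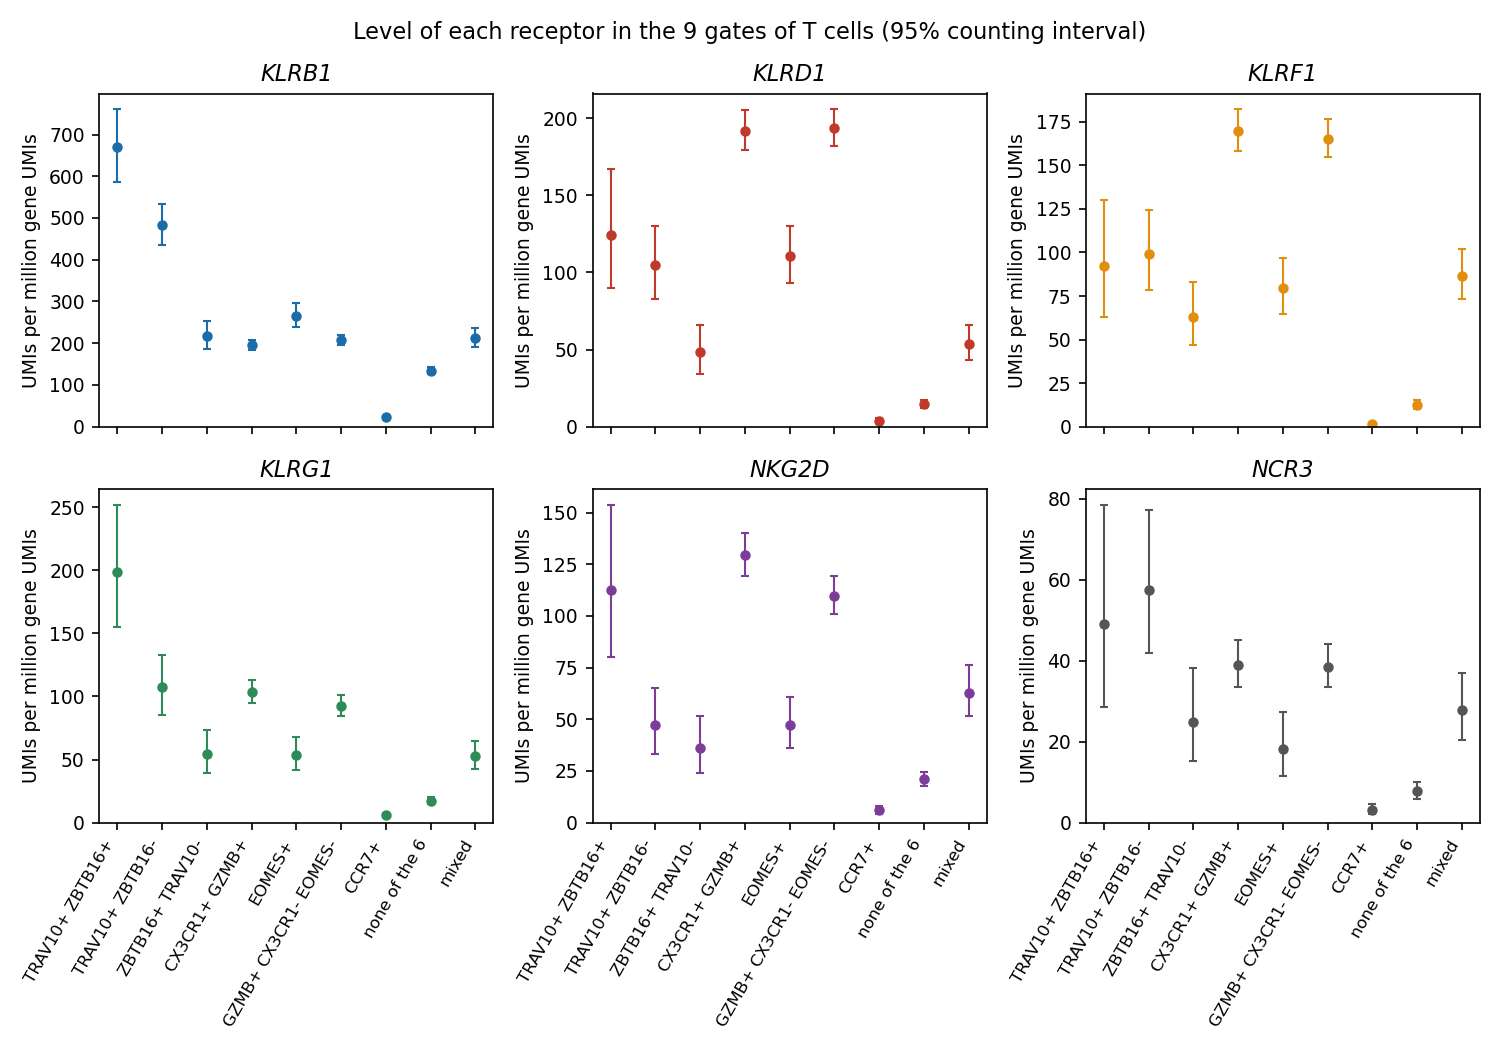
Level of each receptor (UMIs per 1000000 gene UMIs, each panel with its own scale) in the 9 gates, with points for the summed count of a gate and bars for its exact 95% Poisson interval. All 6 receptors are lowest in CCR7+ cells, *KLRD1* and *KLRF1* are highest in both *GZMB* gates, *NKG2D* is high there and in TRAV10+ ZBTB16+ cells, and *KLRB1* and *KLRG1* are highest in TRAV10+ ZBTB16+ cells.

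The granzyme B gates held most of the NK receptor transcripts. CX3CR1+ GZMB+ and GZMB+ CX3CR1- EOMES- cells together were 35.2% of the T cells, and had 78.1% of the T cells' *KLRD1* UMIs, 76.3% of *KLRF1*, 71.0% of *NKG2D*, 64.4% of *KLRG1* and 61.9% of *NCR3*, but only 42.5% of *KLRB1*. In CX3CR1+ GZMB+ cells 4 of the 6 receptors were higher, where 0.993% of all genes tested were, and none was lower (0.834% of genes were). In GZMB+ CX3CR1- EOMES- cells the same 4 were higher, where 0.616% of genes were, and again none was lower (0.834%). *KLRD1*, *KLRF1*, *KLRG1* and *NKG2D* were the receptors concerned in both.

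*KLRD1* stood at 192 CPM (180 to 205) in CX3CR1+ GZMB+ cells and at 194 (182 to 206) in GZMB+ CX3CR1- EOMES- cells, intervals that overlap almost fully. Against the remaining gated T cells this made log2 folds of 1.67 (1.55 to 1.79) and 1.78, respectively. Lower down came TRAV10+ ZBTB16+ cells with 124 CPM (89.8 to 167), EOMES+ cells with 110 (92.9 to 130) and TRAV10+ ZBTB16- cells with 105 (83.0 to 130), which did not differ beyond counting error. Cells with none of the 6 gate genes had 14.4 CPM (11.8 to 17.3), and CCR7+ cells 3.91 (2.66 to 5.55). A UMI of *KLRD1* was seen in 36.6% of CX3CR1+ GZMB+ cells and 1.05% of CCR7+ cells, and after thinning cells to 2000 UMIs, which removes the difference in depth (medians of 3417 and 4288 UMIs), in 26.5% and 0.485%. Cells with fewer than 2000 UMIs (434 T cells) were left out of all shares thinned to this depth.

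The activating receptors *KLRF1* and *NKG2D* were also high in the *GZMB* gates and lowest in CCR7+ cells. *KLRF1* had 170 CPM (158 to 182) in CX3CR1+ GZMB+ cells, a log2 fold of 1.66 (1.53 to 1.79), and 165 (155 to 177) in GZMB+ CX3CR1- EOMES- cells. It had the lowest count of all in CCR7+ cells, with 10 UMIs in 1717 cells or 1.26 CPM (0.605 to 2.32). *NKG2D* had 129 CPM (119 to 140) and 110 (101 to 119) in the *GZMB* gates, and 113 (80.0 to 154) in TRAV10+ ZBTB16+ cells. The *GZMB* gates differed beyond counting error for *NKG2D* (log2 0.24, 0.070 to 0.404), and TRAV10+ ZBTB16+ cells differed from neither. In EOMES+ cells the 2 receptors were lower, at 79.7 CPM for *KLRF1* and 47.3 for *NKG2D*, neither past the 2-fold limit in either direction.

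*KLRB1* was arranged differently. Its highest levels were in TRAV10+ ZBTB16+ cells, at 669 CPM (586 to 761), and in TRAV10+ ZBTB16- cells, at 483 (435 to 534), with log2 folds of 2.18 and 1.73. EOMES+ cells came next with 266 CPM (238 to 296). ZBTB16+ TRAV10- cells had 218 CPM, mixed cells 213, GZMB+ CX3CR1- EOMES- cells 208 and CX3CR1+ GZMB+ cells 195, and no neighbours among these differed beyond counting error. Unlike the other receptors *KLRB1* kept a clear level in cells with none of the gate genes, at 134 CPM (126 to 143), and fell to 22.8 (19.6 to 26.4) in CCR7+ cells. In thinned cells a UMI was seen in 60.3% of TRAV10+ ZBTB16+ cells against 23.9% of CX3CR1+ GZMB+ cells, and in 74.0% against 34.0% before thinning.

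*KLRG1*, the inhibitory cadherin receptor, was high in *TRAV10* cells and in the *GZMB* gates alike. It reached 199 CPM (155 to 252) in TRAV10+ ZBTB16+ cells, a log2 fold of 2.07 (1.70 to 2.42), above the 107 CPM of TRAV10+ ZBTB16- cells, 104 (94.4 to 113) of CX3CR1+ GZMB+ cells and 92.3 (84.3 to 101) of GZMB+ CX3CR1- EOMES- cells. *KLRB1* and *KLRG1* were the 2 receptors higher in TRAV10+ ZBTB16+ cells, where 0.417% of all genes were, and *KLRB1*, *KLRG1* and *NCR3* the 3 higher in TRAV10+ ZBTB16- cells, where 0.179% were. None was lower in either gate, where 1.66% and 0.447% of genes were. *NCR3* had 57.5 CPM (41.8 to 77.2) there, 49.0 (28.6 to 78.5) in TRAV10+ ZBTB16+ cells, and 39.0 (33.5 to 45.2) and 38.5 (33.4 to 44.2) in the *GZMB* gates. The log2 fold of *NCR3* in CX3CR1+ GZMB+ cells was 1.20 (0.94 to 1.45), which the added 10 CPM kept under the limit at its low level. No receptor was higher or lower in EOMES+ cells (0.407% of all genes were higher and 0.228% lower), ZBTB16+ TRAV10- cells (0.119% and 0.417%) or mixed cells (0.0397% and 0.139%). In ZBTB16+ TRAV10- cells this rested on the UMI limit for *KLRB1*, whose log2 fold was 0.52 (0.29 to 0.74) and became 2.10 (1.73 to 2.45) when gate genes other than *GZMB* had to have 2 or more UMIs. Under that limit the log2 folds in TRAV10+ ZBTB16+ cells also moved, to 1.81 from 1.07 for *NKG2D* and to 2.54 from 1.30 for *NCR3*. These rest on few counts, since the gate held only 39 UMIs of *NKG2D* and 17 of *NCR3* at the main limit and the stricter limit keeps only part of its cells.

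The homing receptor marked the opposite end. All 6 receptors were lower in CCR7+ cells, where 1.75% of all genes were, and 4 were lower in cells with none of the gate genes, *KLRB1* and *NCR3* excepted, where 0.507% were. None was higher in either (0.258% and 0.0795% of genes). Both gates leave out cells with *GZMB* by definition. The log2 folds in CCR7+ cells ran from -3.06 for *NCR3* to -6.25 for *KLRF1*. In these cells a UMI of *KLRF1* was seen in 0.524%, of *NKG2D* in 2.27% and of *NCR3* in 1.34%, against 1.15%, 2.30% and 3.45% of the B cell gene cells, so at this depth they were not detectably above background. That background rests on 1, 2 and 3 of 87 cells, and after thinning *NKG2D* was seen in 0.789% of CCR7+ cells and in 0 of 79 B cell gene cells. For all 6 receptors cells with none of the 6 gate genes were above CCR7+ cells beyond counting error, for example 20.9 against 5.93 CPM for *NKG2D*.

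Splitting all T cells by each gate gene alone gave the size of each link. Cells with *GZMB* (3323) exceeded cells without (4122) for all 6 receptors, with log2 folds of 3.68 for *KLRF1* (154 against 11.99 CPM), 3.49 (3.31 to 3.68) for *KLRD1*, 2.69 for *NKG2D*, 2.54 for *NCR3*, 2.34 for *KLRG1* and 1.30 (1.22 to 1.39) for *KLRB1*. For *CX3CR1* the range was 0.50 (*KLRB1*) to 1.69 (*NKG2D*), and for *CCR7* it was -2.15 (*NCR3*) to -3.09 (*KLRF1*). *EOMES* went with *KLRB1* (307 against 146 CPM, log2 1.08) and *KLRD1* (129 against 77.4, 0.74), whereas *NKG2D* (0.00) and *NCR3* (-0.14) did not differ beyond counting error. *TRAV10* went with *KLRB1* (541 against 139 CPM, 1.96), *KLRG1* (136 against 45.9, 1.57) and *NCR3* (54.9 against 18.998, 1.53). *ZBTB16* went with *KLRB1* (354 against 146, 1.27) and *KLRG1* (97.95 against 47.2, 1.05), while *KLRD1* (-0.18), *KLRF1* (0.02) and *NKG2D* (0.12) did not differ beyond counting error. These splits share cells, and cells with *ZBTB16* include the TRAV10+ ZBTB16+ gate. In the ZBTB16+ TRAV10- gate *KLRG1* had 54.5 CPM against 49.0 in the other gated T cells (log2 0.15, -0.31 to 0.59), and *KLRB1* had a log2 fold of 0.52 (0.29 to 0.74).

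The amount of *GZMB* separated the receptors further. From cells with 0 UMIs of *GZMB* through 1 to 2, 3 to 9, 10 to 19 and 20 or more, *KLRD1* went from 15.2 to 65.1, 141, 191 and 266 CPM, and was still higher in the last bin than in the one before. *KLRF1* went from 11.99 to 85.2, 145, 177 and 180, and *NKG2D* from 16.6 to 60.8, 101, 124 and 124, both level over the last 2 bins. *KLRB1* instead was highest in cells with little *GZMB*, with 95.6, 278, 276, 213 and 179 CPM over the same bins. The amount of *CX3CR1* gave a similar contrast, since from 1 to 2 and to 3 or more UMIs *KLRB1* had 227, 170 and 140 CPM and *KLRD1* had 179, 174 and 189. *KLRB1* went the other way with the genes of innate-like cells, at 389 CPM in cells with 1 to 2 UMIs of *TRAV10* and 659 in cells with 3 or more, and at 297 and 644 in cells with 1 and with at least 2 UMIs of *ZBTB16*. The bins of *GZMB* share cells with the gates and are not independent of them.

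**Figure D2:**
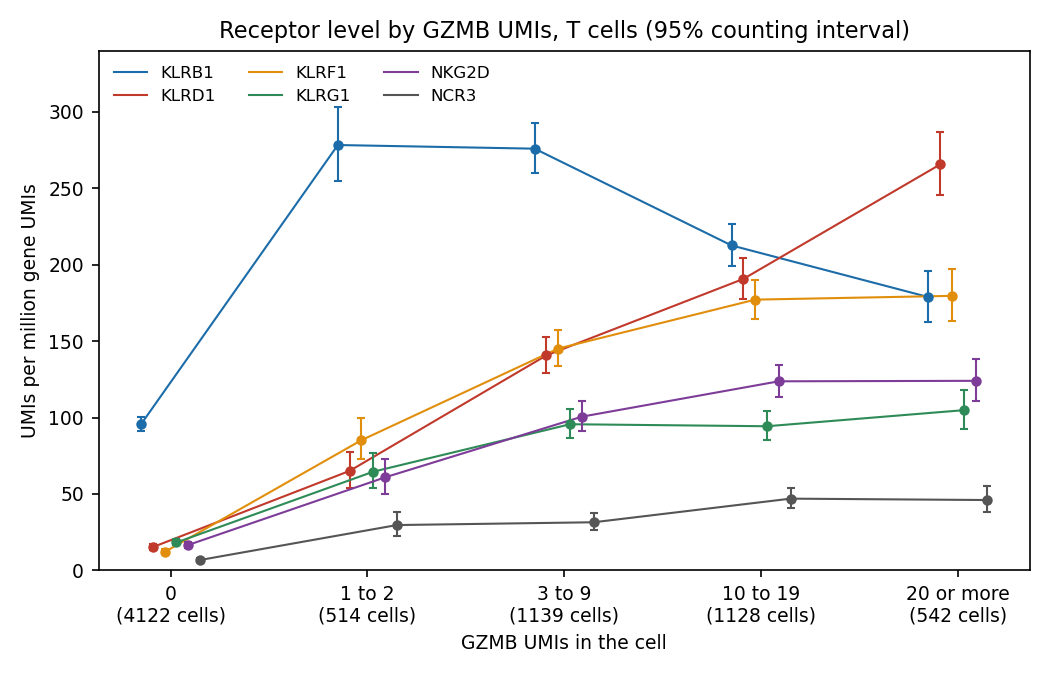
Level of each receptor (UMIs per 1000000 gene UMIs) in T cells by the number of *GZMB* UMIs, with exact 95% Poisson intervals. *KLRD1* climbs through every bin to 266 CPM, *KLRF1* and *NKG2D* level off, and *KLRB1* is highest at 1 to 9 UMIs of *GZMB*.

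Within the smaller gates *GZMB* and *CCR7* again divided the cells for some receptors, less so in TRAV10+ ZBTB16+ cells. Among EOMES+ cells the 72 with at least 3 UMIs of *GZMB* had more *KLRB1* than the 201 without any (437 against 179 CPM), more *KLRD1* (220 against 70.4) and more *KLRF1* (158 against 47.8), but the same *KLRG1* (52.8 in both). In TRAV10+ ZBTB16- cells *KLRB1* was 568 CPM with at least 3 UMIs of *GZMB* (62 cells) and 295 without (88 cells), and *NCR3* was 97.7 and 25.9. In TRAV10+ ZBTB16+ cells *KLRB1* stood at 647 CPM (22 cells) and 628 (43 cells) and *KLRG1* at 203 and 190, while *NCR3* had 75.2 (36.1 to 138) and 28.8 (9.35 to 67.2) and *KLRF1* 60.2 (26.0 to 119) and 115 (70.3 to 178), on 5 to 20 UMIs each. By *CCR7*, *KLRB1* in TRAV10+ ZBTB16+ cells was 513 CPM (359 to 710) in the 10 cells with it and 709 (613 to 815) in the 63 without, intervals that overlap. EOMES+ cells had 137 CPM of *KLRB1* with *CCR7* (123 cells) and 368 without (185 cells). The 38 TRAV10+ ZBTB16- cells with *CCR7* had 108 CPM of *KLRB1* and the 137 without had 619. Among ZBTB16+ TRAV10- cells the values were 61.8 (69 cells) and 403 (81 cells). ZBTB16+ TRAV10- cells were thus a mixture, in which *KLRF1* stood at 182 CPM in the 29 cells with at least 3 UMIs of *GZMB* and at 19.4 in the 109 without.

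Several receptors were often seen in 1 cell. At least 2 of the 6 had a UMI in 62.8% of CX3CR1+ GZMB+ cells, 56.998% of GZMB+ CX3CR1- EOMES- cells and 76.7% of TRAV10+ ZBTB16+ cells, and after thinning in 37.7% (34.8 to 40.6), 35.3% and 50.7%. EOMES+ cells had 36.4% (18.8% thinned), cells with none of the gate genes 9.23% (4.36%) and CCR7+ cells 1.57% (0.425%). None of the 87 B cell gene cells had 2 receptors, although 6.90% had 1. The mean number of receptors per cell was 2.52 in TRAV10+ ZBTB16+ cells, 2.02 in CX3CR1+ GZMB+ cells and 0.129 in CCR7+ cells. All 64 possible combinations of the receptors occurred in CX3CR1+ GZMB+ cells, of which the most common were none (129 cells, 11.3%), *KLRF1* alone (77 cells, 6.72%) and *NKG2D* alone (65 cells). All 6 were seen together in 4 of these 1145 cells, and in 11 of the 7445 T cells.

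**Figure D3:**
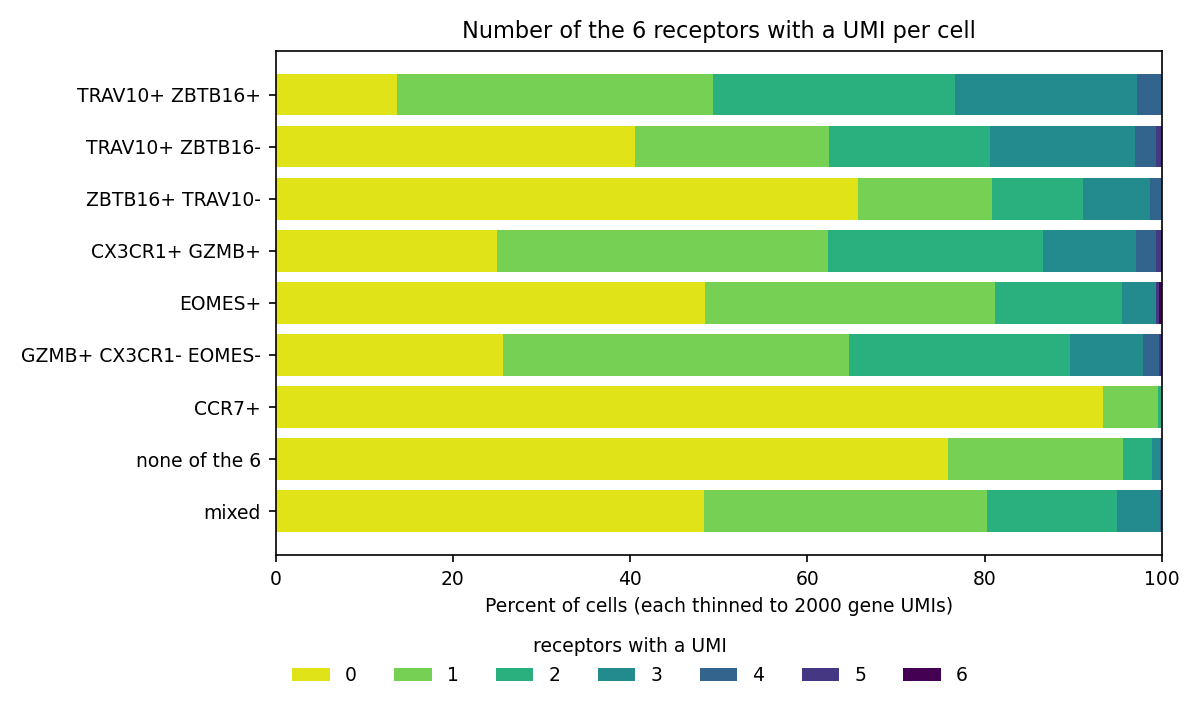
Share of the cells of each gate (percent, stacked bars) by the number of the 6 receptors with a UMI in a cell, after thinning cells to 2000 UMIs and leaving out shallower cells. At least 2 receptors are seen in 50.7% of TRAV10+ ZBTB16+ cells, 37.7% of CX3CR1+ GZMB+ cells and 0.425% of CCR7+ cells.

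Over all T cells each of the 15 pairs of receptors was found together more often than independent receptors would be, with odds ratios of 1.54 to 3.48 in thinned cells. Those values contain the differences between gates. Inside the CX3CR1+ GZMB+ gate the odds ratios were nearer to 1, from 0.873 to 1.51 in thinned cells and from 0.985 to 1.74 unthinned. *KLRD1* and *KLRF1* had the highest unthinned ratio, since 54.7% of the cells with *KLRD1* and 40.9% of those without had *KLRF1* (1.74, and 1.38 thinned). *KLRB1* and *KLRG1* had 1.46, and 1.51 thinned, with *KLRG1* in 36.5% of cells with *KLRB1* and 28.3% of cells without. *KLRB1* and *KLRD1* were close to independent, with *KLRD1* in 37.0% of cells with *KLRB1* and 36.4% of those without (odds ratio 1.03, and 0.933 thinned). Cells with more UMIs are more likely to hold any receptor, and the unthinned values include this.

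The partners of the receptors were read from lists of related genes. Of 24 other NK receptors listed, 12 were measured and 7 had enough UMIs, and in CX3CR1+ GZMB+ cells only *SLAMF6*, a SLAM family receptor, was higher (152 against 63.8 CPM, log2 1.25). *TIGIT*, an inhibitory receptor, was the only one higher in EOMES+ cells (147 against 64.8 CPM). *NCR1* had 0 UMIs in CX3CR1+ GZMB+ cells, and 11 of its 23 UMIs in T cells lay in EOMES+ cells. The *KLRC* genes, which encode the NKG2 partners of *KLRD1*, could not be matched by name and have no value here. Of 17 adaptor and signalling genes 1 was higher in CX3CR1+ GZMB+ cells, the *NKG2D* adaptor *HCST* (1690 against 760 CPM, log2 1.15), which was also among the 5 genes most like *NKG2D* across gates. The median log2 ratio of that list was 0.30 against 0.09 for all genes tested.

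*TYROBP* (DAP12), an adaptor for activating NK receptors, had another distribution. It stood at 966 CPM in TRAV10+ ZBTB16+ cells, where 89.0% of cells had a UMI, at 530 in TRAV10+ ZBTB16- cells, and at 99.6 in CX3CR1+ GZMB+ cells. Over all T cells it had 101 CPM. Among TRAV10+ ZBTB16- cells it was 817 CPM with *KLRB1* and 154 without (log2 2.41, 1.98 to 2.86), 1100 with *KLRD1* and 318 without, and 998 with *KLRG1* and 312 without. In TRAV10+ ZBTB16+ cells, where *TYROBP* was highest, only *KLRB1* split it beyond counting error (1036 against 731 CPM, log2 0.50, 0.092 to 0.94), and *KLRD1* (-0.20) and *KLRG1* (-0.03) did not. In CX3CR1+ GZMB+ cells *TYROBP* was 132 with *KLRB1* and 80.9 without, and was lower in cells with *KLRF1* than in cells without (80.0 against 117 CPM, log2 -0.55). *TYROBP* was higher with *KLRF1* by log2 0.72 in TRAV10+ ZBTB16-, 1.76 in ZBTB16+ TRAV10- and 1.31 in EOMES+ cells. In cells with none of the 6 gate genes it was higher by 1.85, and in TRAV10+ ZBTB16+ cells (-0.10) it did not differ beyond counting error. *TYROBP* was not split by receptor in GZMB+ CX3CR1- EOMES-, CCR7+ or mixed cells, so the link in the other *GZMB* gate is not known. None of the 5 ligand genes tested was higher in CX3CR1+ GZMB+ cells, though *CLEC2D*, the ligand of *KLRB1*, had 310 CPM there and 111 in CCR7+ cells, and *CLEC2B*, the ligand of *KLRF1*, 107 and 30.3. These splits of *TYROBP* were chosen after its values had been seen.

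Of 15 cytotoxic effector genes 8 were higher in CX3CR1+ GZMB+ cells, *GZMB* by the choice of the gate and also *PRF1* (167 against 55.3 CPM), *NKG7*, *CST7*, *CCL5*, *FGFBP2*, *S1PR5* and *ADGRG1*. The list's median log2 ratio was 1.41. Of 16 transcription factors 4 were higher, *TBX21* (66.9 against 20.5 CPM, log2 1.71), *ZEB2*, *RUNX3* and *BHLHE40*, and 3 were lower, *TCF7*, *LEF1* and, by the choice of the gate, *ZBTB16*. In CCR7+ cells 11 of the 15 effector genes were lower and 8 of the 16 factors, while *TCF7* and *LEF1* were higher. Over 26 units of cells, each gate divided in 3 by the CD8 tag, the genes whose level was most like that of *KLRF1* were *NKG7* (Pearson r = 0.97), *PRF1* and *CST7* (0.96 each), and *KLRD1* was most like *KLRF1* (0.91) and *KLRG1* (0.90). *KLRB1* was most like *SAMHD1* (0.87), with *KLRG1* (0.84) as the nearest receptor, and *NCR3* was most like *KLRG1* (0.87). The units come from 1 library and share the gate genes, so these values are descriptions.

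Within the CX3CR1+ GZMB+ gate, many of the genes that differed most between cells with and without a receptor were T cell receptor segments. Of 6610 genes tested, 14 (0.212%) were higher and 12 (0.182%) lower in the 419 cells with *KLRD1* than in the 726 without. The largest was *TRBV7-3*, a β-chain variable segment, with 372 against 30.4 CPM (log2 3.61, 3.28 to 3.96), in 92 cells with *KLRD1* and 16 without. *TRBV10-1* (118 against 35.1 CPM) and *TRBV29-1* (113 against 36.1) followed. In cells with *KLRB1* the same segment was lower (78.5 against 214 CPM), as was *TRBV29-1*, while *TRAV30* was higher, in 21 cells with *KLRB1* and 7 without. *TRBV11-1* was higher with *KLRG1* (157 against 42.2 CPM), *NKG2D* (135 against 38.03) and *NCR3* (148 against 68.9), and *TRAV12-2* was higher with *NCR3* (184 against 69.2). For *TRBV11-1* the share of cells differed clearly only with *NKG2D* (10.6%, 7.95 to 13.8, against 4.54%, 3.104 to 6.38), was 8.71% against 6.21% with *KLRG1* and 8.81% against 6.69% with *NCR3*, and 3 cells held 25.2% of its UMIs. Other genes named by the same rule rested on few cells, such as *DUSP2* with *KLRG1*, where 3 cells held 53.0% of the UMIs, or *MS4A1*, a B cell gene, with *KLRB1*, where 3 cells held 64.6%. *RRM2*, a gene of dividing cells, had 53 UMIs in cells with *KLRF1* and 9 in cells without. A gene outside these segments that differed with *KLRB1* was *GZMK*, with 319 against 113 CPM.

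*TRBV7-3* was then used to divide the cells, a choice made after its value had been seen. It had a UMI in 315 of the 7445 T cells (4.23%), but in 224 of the 1257 T cells with *KLRD1* (17.8%) and in 89 of the 313 with at least 3 UMIs of *KLRD1* (28.4%). In the CX3CR1+ GZMB+ gate the 108 *TRBV7-3* cells (9.43%) had 599 CPM of *KLRD1* (527 to 679) and the other 1037 cells 152 (141 to 165), a log2 fold of 1.98 (1.76 to 2.19), and a *KLRD1* UMI was seen in 85.2% and 31.5%. *KLRB1* was lower, at 83.2 against 206 CPM, a log2 fold of -1.31 (-1.85 to -0.82), while *KLRF1* (0.25), *KLRG1* (0.06), *NKG2D* (0.20) and *NCR3* (-0.21) did not differ beyond counting error. The GZMB+ CX3CR1- EOMES- gate gave like values for *KLRD1* and *KLRB1*. *KLRD1* was at 574 CPM (508 to 646) in 154 *TRBV7-3* cells (10.4%), 1.88 (1.67 to 2.08) higher on the log2 scale than in the 1325 cells without it. *KLRB1* was at 44.1 CPM, a log2 fold of -2.34 (-3.04 to -1.72). Unlike in the first gate, *NKG2D* was higher beyond counting error, at 143 against 107 CPM (log2 0.42, 0.036 to 0.79). *KLRG1* (0.42, -0.006 to 0.82), *KLRF1* (0.12) and *NCR3* (-0.12) did not differ beyond counting error. The cells of this second gate come from the same animal and library, and *TRBV7-3* was on a gene list chosen with earlier results of these data known. The second gate is therefore not an independent check. The other 7 gates held 1 to 18 *TRBV7-3* cells each, too few to compare. There were 9 *KLRD1* UMIs in the 4 cells of the ZBTB16+ TRAV10- gate (363 CPM, 166 to 689). The 7 cells of the EOMES+ gate had 4 (76.2 CPM, against 112 without the segment). In the TRAV10+ ZBTB16+ gate 1 cell had 1, and in the TRAV10+ ZBTB16- gate 2 cells had 3. None was seen in the 13 cells with none of the 6 gate genes or in the 8 mixed cells. The 18 cells of the CCR7+ gate also had 0, where up to 18.5% of cells could still hold one. Segments of the *TRBV7* family resemble each other and their sequences were not compared here, so the name of the segment is uncertain. With *TRBV7-3* cells left out everywhere, the log2 fold of *KLRD1* in the CX3CR1+ GZMB+ gate was 1.59, against 1.67 with them. The cells compared with this gate include the other *GZMB* gate, which lost its *TRBV7-3* cells too. The fold therefore cannot show how much the segment adds to *KLRD1*. Within the CX3CR1+ GZMB+ gate, *TRBV7-3* cells held 245 of the 881 *KLRD1* UMIs, and the level was 192 CPM with them and 152 without.

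**Figure D4:**
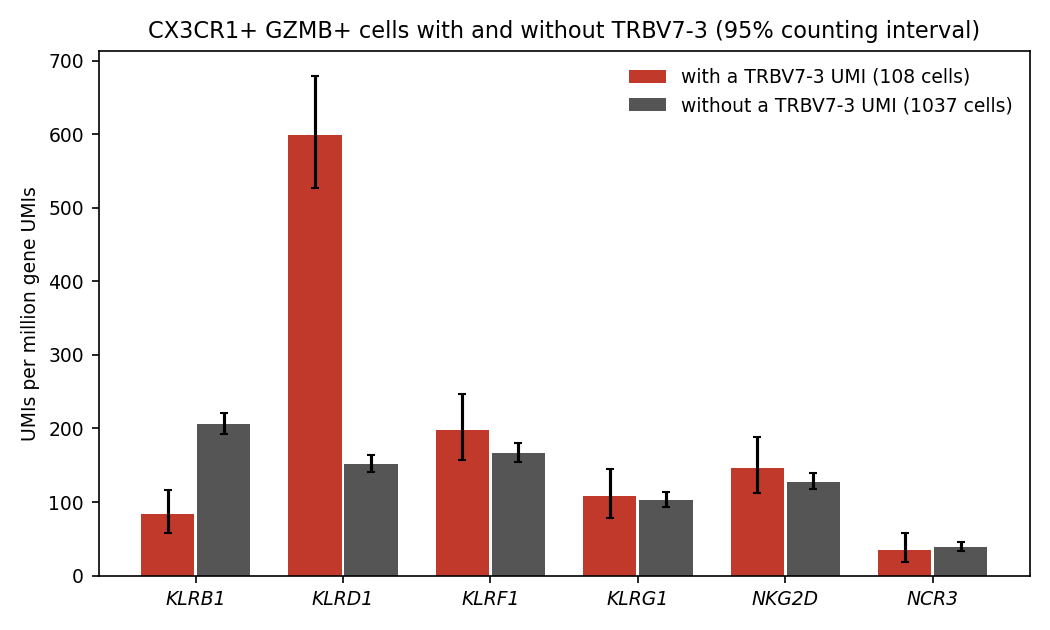
Level of each receptor (bars, UMIs per 1000000 gene UMIs) in the 108 CX3CR1+ GZMB+ cells with and the 1037 without a UMI of *TRBV7-3*, with exact 95% Poisson intervals. *KLRD1* is higher with *TRBV7-3* (599 against 152 CPM), *KLRB1* is lower (83.2 against 206), and the intervals of the other 4 receptors overlap.

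The CD8 tag was the only other measure of the same cells, and its relation to the receptors depended on the gate. The T cells were ranked by raw CD8 tag and divided into 4 groups of about equal size, which had median tag counts of 130.5, 259.5, 442 and 813. They differed in depth as well, with median gene UMIs of 3346 in the lowest and 4570 in the highest group, and in make-up, with at least 3 UMIs of *GZMB* in 27.2%, 45.2%, 44.6% and 34.1% of their cells. None of the 6 receptors passed 2-fold between the highest and the lowest tag group, where 0.0763% of 9169 genes were higher and 0.0873% lower. The 6 receptors summed had 359 CPM in the highest and 391 in the lowest group, a log2 fold of -0.12 (-0.20 to -0.05). This direction turned to 0.48 (0.41 to 0.56) when the tag count was divided by the cell's gene UMIs, so no direction can be given over all T cells. *KLRB1*, *KLRD1*, *KLRF1*, *KLRG1* and *NKG2D* were all highest in the second group, where *KLRD1* had 99.5 CPM.

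Within CX3CR1+ GZMB+ cells *KLRD1*, *KLRB1*, *KLRF1* and *NKG2D* were lower where the CD8 tag was higher. *KLRD1* had 331, 216, 151 and 143 CPM over the tag groups (197, 365, 319 and 264 cells), a log2 fold of -1.21 (-1.496 to -0.93), *KLRB1* had 268, 218, 158 and 174, and *KLRF1* 185, 206, 175 and 125. *NKG2D* had a log2 fold of -0.47, while *NCR3* (-0.46) and *KLRG1* (0.00) did not differ beyond counting error. In GZMB+ CX3CR1- EOMES- cells *KLRD1* had 291, 202, 161 and 161 CPM, a log2 fold of -0.86. With the tag divided by gene UMIs the log2 fold of *KLRD1* was -0.53 (-0.81 to -0.26) in the first gate and -0.14 in the second, the latter no longer beyond counting error. In the first gate *KLRB1* kept -0.51, and *KLRF1* (-0.08) and *NKG2D* (0.15) no longer differed beyond counting error. In the second gate, on the same scale, *KLRB1* (-0.05, -0.31 to 0.22), *KLRF1* (0.05) and *NKG2D* (0.17) did not differ beyond counting error. There *KLRG1* (0.65, 0.22 to 1.09) and *NCR3* (0.64, 0.0035 to 1.31) were higher where the tag was higher. *TRBV7-3* cells had a lower CD8 tag, with a median of 205 UMIs against 364 in the other CX3CR1+ GZMB+ cells and a CD4 tag of 308.5 against 309. Without them *KLRD1* had 187, 173, 136 and 135 CPM over the tag groups, a log2 fold of -0.47 (-0.84 to -0.10). Among the *TRBV7-3* cells alone the log2 fold of *KLRD1* between the same groups was -1.48 (-2.24 to -0.79). Both of these folds are on the raw tag, and neither was computed with the tag divided by gene UMIs. How much of the relation between *KLRD1* and the tag rests on this segment beyond these values was not tested.

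EOMES+ cells went the opposite way for *KLRD1*, as did CCR7+ cells and cells with none of the 6 gate genes. Its log2 fold between the highest and lowest tag groups was 2.42 in CCR7+ cells (23 and 3 UMIs). In cells with none of the gate genes it was 1.53 (55 and 16 UMIs). With the tag divided by gene UMIs these were 3.52 and 2.02, all beyond counting error. Mixed cells had 0.059 on the raw tag, within counting error, and 1.27, beyond it, with the tag divided. In the gates with *TRAV10* or *ZBTB16*, *KLRD1* did not differ beyond counting error on either scale. In EOMES+ cells *KLRD1* had 11.4, 81.8, 93.7 and 198 CPM over the tag groups (78, 95, 57 and 78 cells), from 3 to 89 UMIs. The log2 fold was 4.12 (2.53 to 6.43), and 4.02 (2.61 to 5.94) with the tag divided by gene UMIs. A *KLRD1* UMI was seen in 2.56% of the lowest and 41.0% of the highest group, with a median depth of 3292 and 4805.5 UMIs. The 32 cells with *KLRD1* in the highest group had a median CD8 tag of 1626.5 UMIs and a median CD4 tag of 128.5, against 1121.5 and 451.5 over all cells of that group, so their median CD4 tag was below the limit of 192.6. *KLRG1* went from 30.3 to 73.4 CPM in the same gate, a log2 fold of 1.28. The detail of EOMES+ cells by tag group was added after these values had been seen.

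**Figure D5:**
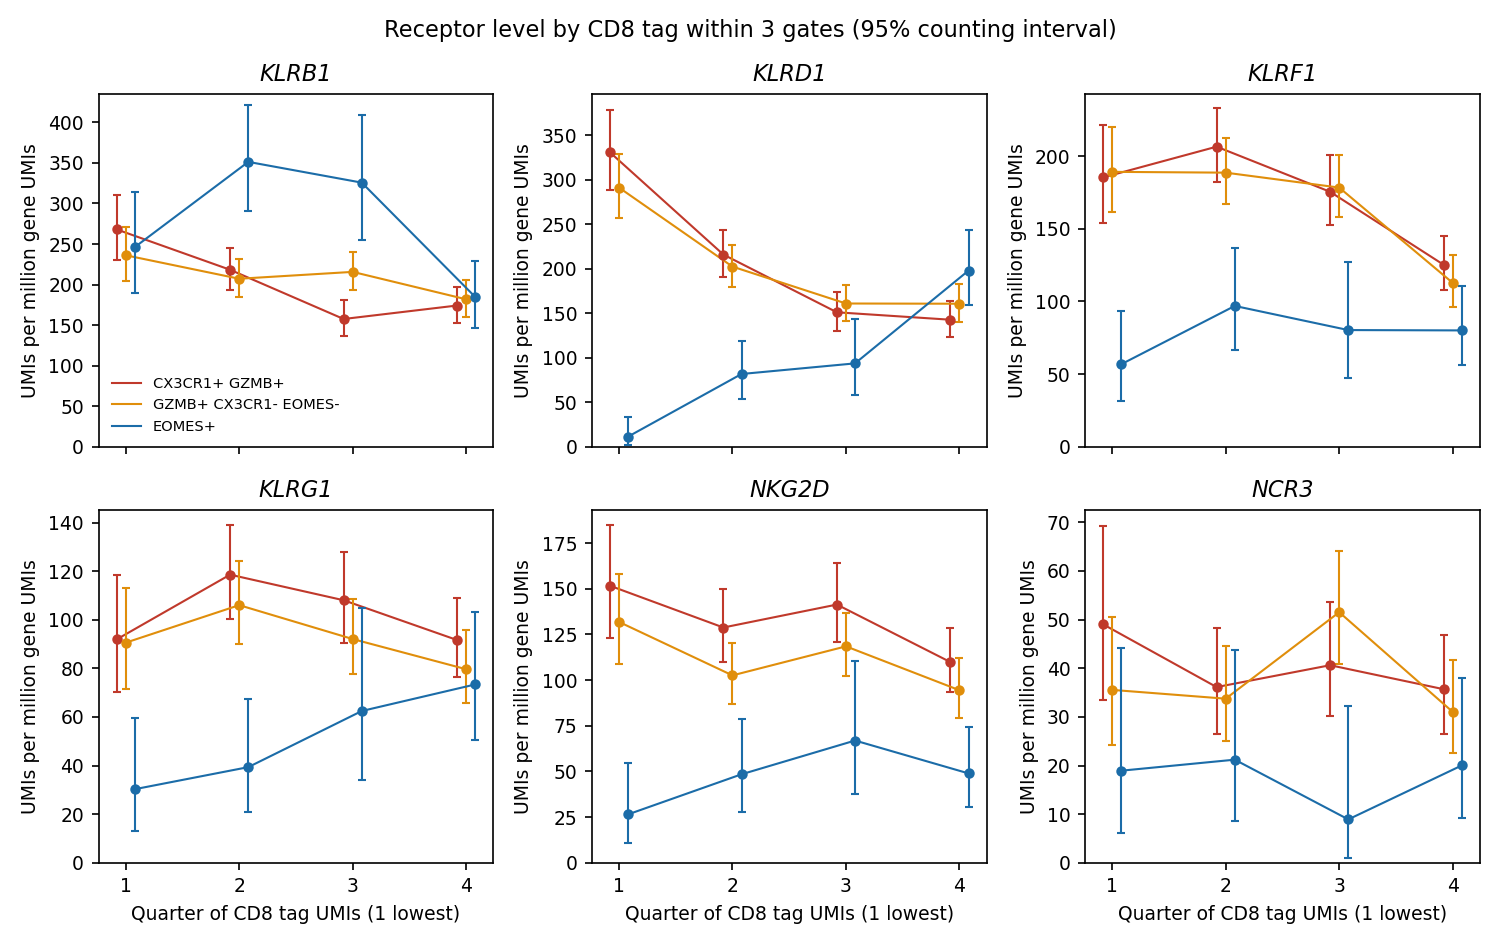
Level of each receptor (UMIs per 1000000 gene UMIs) over the 4 groups of rising CD8 tag, drawn as 1 to 4, within CX3CR1+ GZMB+, GZMB+ CX3CR1- EOMES- and EOMES+ cells, with exact 95% Poisson intervals. *KLRD1* goes from 331 to 143 CPM in CX3CR1+ GZMB+ cells and goes from 11.4 to 198 CPM in EOMES+ cells.

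The 198 T cells above the limit of the CD8 tag alone held 325 CPM of *KLRD1*, against 61.6 in the 3626 cells above both limits, a log2 fold of 2.40. *NKG2D* (1.26), *KLRF1* (1.37), *KLRG1* (1.16) and *KLRB1* (0.94) were higher there as well, while *NCR3* (0.50) did not differ beyond counting error. *GZMB* itself had 2283 CPM in these cells against 1144, and *EOMES* had 64.7 against 12.4. *CX3CR1* (97.9 against 59.9) and *ZBTB16* (18.1 against 9.62) were higher too, while *CCR7* (99.4 against 140) and *TRAV10* (4.52 against 34.7) were lower. The 2 sets also differed in depth, with medians of 3096 and 4066 UMIs. Inside the CX3CR1+ GZMB+ gate, with 37 cells against 566, *KLRD1* (0.52) no longer differed beyond counting error. There *NKG2D* (0.88) and *KLRG1* (0.78) did, and *KLRB1* was lower (-1.45). Over all gates, the 313 T cells above neither limit had 142 CPM of *KLRD1* and 1818 of *GZMB*. Against the cells above both limits they had 125 and 61.0 CPM of *KLRF1*, 74.7 and 49.1 of *NKG2D*, and 72.3 and 46.5 of *KLRG1*. For *NCR3* the values were 33.2 and 20.2, and for *KLRB1* 106 and 143.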

How the data were processed

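Per the labels and the study's methods, the authors made the deposited UMI counts with Cell Ranger 3.1.0 and STAR 2.5.1b against Mmul_10, and analysed them in Seurat 3.1.3. No source used here names the annotation release. Deposited counts were used unnormalized, with 32297887 gene UMIs over 7923 barcodes. The filter kept genes found in 3 or more barcodes, and cells holding 200 to 4000 genes whose mitochondrial UMIs did not exceed 20% (14459 genes, 7601 cells). Python 3.11.15, numpy 2.4.6, pandas 2.3.3 and scipy 1.17.1 were used, and figures were drawn with matplotlib 3.10.9. UMIs were summed over the cells of a gate, with exact Poisson intervals for CPM, exact binomial splits for ratios and Clopper-Pearson intervals for shares, and the computation was tested on simulated data. A B cell gene cell was 1 without CD3 UMIs and with 3 or more UMIs over the B cell list. Doublets were not removed. Scrublet in scanpy 1.11.5 marked 0 cells by its own threshold, so it has not worked as a caller, and the 380 cells with the highest scores (5%) were left out as an alternative.

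The receptors, gates and gene lists were chosen with earlier results of these data known. Named genes were the receptors, the gate genes, members of the lists with the largest ratios, the 5 genes most like each receptor, and the 3 genes with the largest ratio in each direction between cells with and without a receptor. Alternatives were other limits for gates, cells, thinning and the added CPM, and other ways to average and to scale the tag. Positions and promoter letters come from RefSeq for Mmul_10. A further promoter window is not reported here. Where a T cell receptor segment or the *TYROBP* gene was used to divide cells, the choice followed from the values.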

Additional observations from a re-analysis of the deposited data

Results flagged for a closer look

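The barcodes left out by the filter also held receptor UMIs. In the 322 removed barcodes *KLRB1* had 111 UMIs, *KLRD1* 59, *NKG2D* 57, *KLRF1* 54, *KLRG1* 39 and *NCR3* 17. They stand here because these barcodes entered no comparison and their counts lay above the 3 that a count of 0 allows. In CPM the removed barcodes had 86.0 of *KLRB1* against 152 in kept cells, 45.7 against 79.1 of *KLRD1*, 44.2 against 53.7 of *NKG2D*, 41.8 against 70.3 of *KLRF1*, 30.2 against 48.5 of *KLRG1* and 13.2 against 20.2 of *NCR3*.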

How the results depend on the processing

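Of 99 alternative values of the main results 78 stayed, 20 moved and 1 changed sign. A value stayed when it lay within the counting interval of the main value. The count of genes at least 2-fold higher has no interval and was held to a fixed ratio instead. The 99 values include the 6 folds without *TRBV7-3* cells, an alternative added after seeing the data. With the other gate genes at 2 or more UMIs, the log2 folds in CX3CR1+ GZMB+ cells were 0.053 for *KLRB1*, 1.36 for *KLRD1*, 1.48 for *KLRF1*, 1.05 for *KLRG1*, 0.79 for *NCR3* and 1.499 for *NKG2D*. With *GZMB* at 10 or more they were 0.29 for *KLRB1* and 1.81 for *KLRD1*. Without the highest 5% of doublet scores they were 0.54 for *KLRB1*, 1.80 for *KLRD1* and 1.80 for *KLRF1*, and as a mean over cells 1.46 for *KLRD1*, 1.49 for *KLRF1* and 1.43 for *NKG2D*. Genes at least 2-fold higher there numbered 100 with 10 CPM added, 286 with 1 and 28 with 50. The share of these cells with at least 2 receptors was 37.7% thinned to 2000 UMIs, 16.9% thinned to 1000 and 62.8% without thinning. The summed log2 fold between the highest and lowest CD8 tag group was -0.038 in cells with CD3 and no B cell gene UMI, -0.023 over all kept cells and 0.48 with the tag divided by gene UMIs. Of 480 values of other results 447 stayed, 29 moved and 4 changed sign, where a change of sign was counted only for folds beyond counting error. *KLRD1* in mixed cells went to 0.61 with *GZMB* at 10 or more and to 0.0085 with the other gate genes at 2 or more. *NKG2D* in ZBTB16+ TRAV10- cells went to 0.13 under the latter, and *NCR3* in mixed cells to -0.31 with *GZMB* at 1 or more. Folds within counting error also changed sign without being counted, such as *KLRF1* in ZBTB16+ TRAV10- cells, with -0.32 to 0.62 over the alternatives. The causes were not tested. Leaving out *TRBV7-3* cells, chosen after seeing the data, moved none of the 6 folds beyond its interval. These cells were left out on both sides of each fold. No paired analysis was possible because there was 1 animal and 1 RNA library.

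Depth limits what can be read of *NCR3*, with 626 UMIs in all, and of CCR7+ cells, where *KLRF1* had 10 UMIs. With 1 animal, nothing here separates this animal from rhesus monkeys in general.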
